A study of Homo sapiens with 8 samples.

Results

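The replication-dependent histone genes were followed here in 2 Ewing sarcoma cell lines after knockdown of the LOXHD1 enhancer. They were taken by name: every gene symbol of the HIST1, HIST2, HIST3 and HIST4 clusters, without the names that end as a pseudogene does, and with the row of the highest mean where a symbol had more than 1 row. This gave 74 of 60332 genes, namely 6 of class H1, 17 of H2A, 22 of H2B, 14 of H3 and 15 of H4. The HIST1 cluster on chromosome 6 held 55 of them, HIST2 on chromosome 1 held 14, HIST3 on chromosome 1 held 4 and HIST4 on chromosome 12 held 1.

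RD-ES and SK-N-MC are established lines grown from Ewing sarcoma, a bone and soft tissue tumour driven by a fusion of EWSR1 with an ETS factor. In eKD2, dCas9-KRAB, a non-cutting Cas9 joined to a repressor domain, was sent by a guide to a site beside the GGAA repeat of the enhancer. By the labels the control cells received the same virus without a guide, whereas the study's text calls them parental. Both pools were infected at a multiplicity of 10, were selected with puromycin at 1 µg/ml for 3 days and were used within 5 passages, so each is a mixed population and not a clone. Poly(A)-selected RNA was sequenced, with 2 libraries in each of 4 groups and 8 in all. The study's methods call the libraries of a condition biological duplicates, and the labels do not say whether the 2 came from separate cultures, so the p-values measure the spread between these libraries.

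Most histone mRNA of a dividing cell comes from replication-dependent genes, which are transcribed in S phase under NPAT and have no introns. Their mRNAs end in a conserved stem-loop, bound by SLBP, and not in a poly(A) tail, and they are degraded when DNA synthesis ends. Some members can also be read through into a downstream poly(A) site, and replication-independent variants such as H3F3B and H2AFZ always carry a tail. Selection on the tail is not made to retain the stem-loop form.

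The stem-loop was searched for in GRCh37 in the 300 bases after the stop codon, as a 16-base element with a stem of 6 pairs and a loop of 4 bases. Only a fixed pattern was accepted: GG then C or T on the 5′ side, a loop opening with TT and holding no G, and A or G then CC on the 3′ side. The shared ends and loop start were thus set by the search, which also limited how many sequences could be found. A match was found in 60 of the 64 members that the annotation gives as protein-coding, at 22 to 67 bases after the stop codon with a median of 35.5. A member without a match may hold an element of another form. Within the pattern the members shared 7 distinct sequences, and 57 of the 60 carried 1 of the 4 below. They are shown because this element stands in place of the tail on which the libraries were selected. Stem bases are in capitals and loop bases in lower case.
HIST1H1C (35 members): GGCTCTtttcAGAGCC
HIST1H2BK (9 members): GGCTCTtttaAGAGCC
HIST4H4 (9 members): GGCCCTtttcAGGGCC
HIST1H4I (4 members): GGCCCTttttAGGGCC

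The stem sequences split by class. The stem with GGCCCT was found in H4 genes alone among these 4 groups, and the stem with GGCTCT in H1, H2A, H2B and H3 genes. HIST2H2AC, 1 of the 3 remaining members, had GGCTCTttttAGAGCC.

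The promoters also shared motifs that the naming rule did not use. RefSeq sequence (GRCh38.p14) was found for 57 members, and the 250 bases before the start site were searched on both strands. The octamer ATTTGCAT, a site known to be bound by POU2F1, occurred in 11 of 14 H2A and 12 of 16 H2B promoters. It occurred in 1 of 10 H3 promoters, in 0 of 6 H1 and 0 of 11 H4 promoters, and in 1.63% of all 35116 promoters. CCAAT occurred in 48 of the 57 members (84.2%) against 32.0% of all promoters, with 2 of 11 H4 promoters as the low class. TATAAA occurred in 66.7% of the members and in 10.7% of all promoters. The window of the H3 gene with the octamer, HIST1H3D, was identical to that of HIST1H2AD, so this is the same sequence counted for both genes. In all, 20 of the 57 windows overlapped that of another member, mostly as H2A and H2B genes that face apart, and 14 of the 24 windows with the octamer were among them. A match of letters is a description and not a mapped binding site. The promoters of HIST1H2BK, the member with the highest mean level, and HIST2H2AC, the highest H2A gene, are given 5′ to 3′ with the octamer, or its reverse complement, in capitals. The first lies on the minus strand at chr6:27146859-27147108 and the second on the plus strand at chr1:149886668-149886917.
HIST1H2BK: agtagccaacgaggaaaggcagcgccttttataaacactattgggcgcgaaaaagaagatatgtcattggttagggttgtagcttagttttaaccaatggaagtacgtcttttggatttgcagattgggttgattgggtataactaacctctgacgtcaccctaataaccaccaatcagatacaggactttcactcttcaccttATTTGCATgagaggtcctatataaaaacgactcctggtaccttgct
HIST2H2AC: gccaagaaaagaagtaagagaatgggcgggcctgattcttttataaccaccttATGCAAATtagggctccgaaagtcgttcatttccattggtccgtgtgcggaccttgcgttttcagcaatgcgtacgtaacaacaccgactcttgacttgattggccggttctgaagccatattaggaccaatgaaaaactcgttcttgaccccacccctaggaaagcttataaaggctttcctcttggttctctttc

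The libraries were first checked against their labels. LOXHD1, the gene targeted through its enhancer, was given in FPKM, the fragments of a gene scaled to its length and to the depth of the library. It went from 21.4 and 21.2 (RD-ES control) to 1.04 and 1.02 (eKD2), and from 159 and 169 (SK-N-MC control) to 11 and 11.95 (eKD2). All 10 Ewing sarcoma markers of a fixed list, CD99 and NKX2-2 among them, were above 0 in all 8 libraries. Of 10 markers of other cell types, 9 were in the file, and their summed level was 12.8 to 22.04 FPKM in the RD-ES libraries and 330 to 359 FPKM in the SK-N-MC libraries, with DCN at 134 to 159 FPKM in SK-N-MC. The blood markers PTPRC and CD3E were unlike. PTPRC was at 19.2 to 22.6 FPKM in SK-N-MC and at most 0.017 FPKM in RD-ES, and CD3E was at 0 in every library. The value of 22.04 was that of RD-ES eKD2 1, where the epithelial markers KRT8 and CDH1 were at 8.24 and 3.50 FPKM, against 1.08 to 1.38 and 0.037 to 0.16 FPKM in the other RD-ES libraries. Their part in differences between the lines was not tested.

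The members were near the floor of what these libraries measured. All 74 together made up 0.00507% to 0.0123% of the summed FPKM of a library, and their sum lay between 38.7 and 92.6 FPKM. The 12 variant histone genes of a fixed list, which lie outside the naming rule, summed to 1996 to 2643 FPKM in the same libraries. The median member had a mean of 0.383 FPKM over the 8 libraries. Means reached 1 FPKM in 15 members (20.3%, against 25.2% of all genes) and 2 FPKM in 6 members. In every library 13 members were listed at 0, and 23 were above 0 in all 8.

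How few reads these levels stand for can be read from the values. For 36 members that are alone at a locus of 300 to 700 bases, low FPKM values lay at steps of the value of 1 read. Of the values of up to 10 reads, 129 of 130 were within 0.1 of a whole number. The step had been adjusted on low values of these same members, so that count is in part set by the fit. Reads are given rounded, and depth by that step was 7.33 to 29.5 M reads a library. At the length of HIST1H2BK, 1 read was worth 0.189 FPKM in the deepest library and 0.758 FPKM in the shallowest, RD-ES eKD2 1. The 36 members held 1021 reads in the 8 libraries together, 54 to 178 in a library. HIST1H1C, HIST1H2BK and HIST2H2AC took 66.9% of those reads. Of the others, 6 members had 0 reads, 13 had 1 to 10 and 14 had 11 to 50. A difference of less than 0.758 FPKM was therefore less than 1 read for a gene of that length in the shallowest library, and a floor of this kind covers counting error only.

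Sequence identity between members bears on what reads can be assigned, and how reads that match several places were counted was not examined. Exons of 66 members were cut into all windows of 75 bases, and the windows were searched for in GRCh37 on both strands. In 51 members at least 90% of the windows occurred once, and 11 of these reached a mean of 1 FPKM. In 7 members under 10% did, and 0 of these reached it, with 5 at 0 in every library. HIST2H2AA3, HIST2H3A, HIST2H3C and HIST2H4B had no unique window and were listed at 0 throughout, and HIST2H4A had none and was above 0 in 7 libraries, so the level of all 5 is uncertain. Of the 8 members between 10% and 90%, 2 reached it (25%, against 21.6% of the 51). HIST1H2BK, the highest member, had 61.1% unique windows, and part of its sequence recurs in other H2B genes, so its level is uncertain as far as reads could be split.

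**Figure D1:**
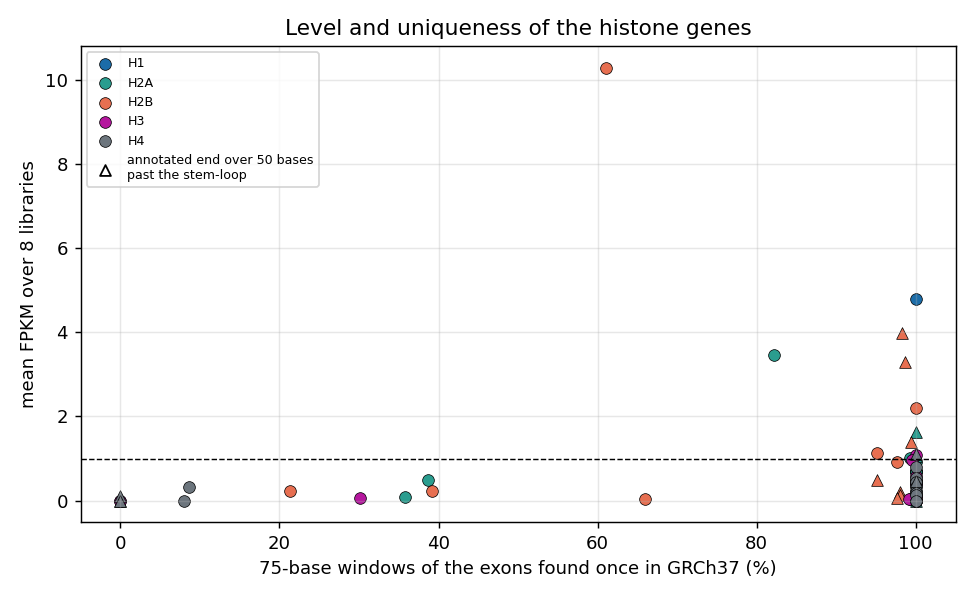
Mean FPKM over 8 libraries (vertical axis) against the percent of 75-base exon windows found once in GRCh37 (horizontal axis) for 66 histone genes, coloured by class, with triangles for genes whose annotated end lies over 50 bases past the stem-loop and a dashed line at 1 FPKM. The 7 genes under 10% all lie below the line, and HIST1H2BK stands at 61.1% and 10.3 FPKM.

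An annotated transcript ended more than 50 bases past the stem-loop in 16 of the 60 members with a stem-loop, and 14 of the 16 had a poly(A) signal (AATAAA or ATTAAA) in the 40 bases before such an end. Of the 16, 6 reached a mean of 1 FPKM (37.5%), and of the other 44, 7 did (15.9%). The medians of the means did not differ in the same way, at 0.419 FPKM and 0.423 FPKM. The 2 highest members, HIST1H2BK and HIST1H1C, had no such end in the annotation. These shares are a description of annotation and level.

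Class H1, the linker histones, was carried by HIST1H1C. This gene (GRCh37 chr6:26055968-26056698, minus strand, 1 exon) had FPKM values of 1.23 and 3.04 (RD-ES control), 3.96 and 1.89 (RD-ES eKD2), 5.46 and 9.33 (SK-N-MC control) and 7.53 and 5.84 (SK-N-MC eKD2). All 4 SK-N-MC libraries lay above all 4 RD-ES libraries, and the eKD2 values overlapped the control values in both lines. The reads were 7, 22, 13 and 12 in the RD-ES libraries and 71, 53, 77 and 63 in the SK-N-MC libraries. HIST1H1E was at 0.220 to 0.727 FPKM in 7 libraries and at 2.89 FPKM in SK-N-MC control 2, and HIST1H1B was at 0 to 0.579 FPKM in 7 libraries and at 1.74 FPKM in SK-N-MC control 2. HIST1H1A and HIST1H1D were listed at 0 in all 8 libraries.

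Class H2A was led by HIST2H2AC (GRCh37 chr1:149858468-149858961, plus strand). Its FPKM values were 0.418 and 0.986 (RD-ES control), 2.90 and 2.62 (RD-ES eKD2), 2.34 and 8.22 (SK-N-MC control) and 4.59 and 5.64 (SK-N-MC eKD2). In RD-ES the eKD2 values lay above the control values, on 4 and 7 reads against 1 and 3 reads. How often all genes show such an order was not computed. HIST1H2AC had FPKM values of 0.487 and 1.01 (RD-ES control), 1.37 and 1.33 (RD-ES eKD2), 1.99 and 2.65 (SK-N-MC control) and 1.94 and 2.34 (SK-N-MC eKD2). HIST3H2A ran the other way between the lines, with FPKM values of 1.56 and 2.36 (RD-ES control), 1.16 and 1.10 (RD-ES eKD2), 0.479 and 0.437 (SK-N-MC control) and 0.671 and 0.751 (SK-N-MC eKD2). HIST1H2AC and HIST3H2A thus separated the lines without overlap, in opposite directions, while HIST2H2AC overlapped between them. HIST1H2AM, just inside the filter with a mean of 1.02 FPKM, ranged from 0 in RD-ES eKD2 2 to 2.93 FPKM in SK-N-MC control 2.

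Class H2B had the highest levels. HIST1H2BK (GRCh37 chr6:27114140-27114634, minus strand, 1 exon) had FPKM values of 6.15 and 11.8 (RD-ES control), 6.09 and 11.8 (RD-ES eKD2), 10.99 and 12.5 (SK-N-MC control) and 11.8 and 11.2 (SK-N-MC eKD2). The 2 libraries of RD-ES control differed more from each other than their mean did from that of eKD2. Those of HIST1H2BD were 2.86 and 3.93 (RD-ES control), 1.82 and 2.90 (RD-ES eKD2), 3.18 and 7.07 (SK-N-MC control) and 4.98 and 5.06 (SK-N-MC eKD2). HIST1H2BJ was at 0.423 to 0.918 FPKM in 3 RD-ES libraries and at 4.05 FPKM in RD-ES eKD2 1, against 2.48 to 7.55 FPKM in SK-N-MC. RD-ES eKD2 1 was both the shallowest library and the one with the high KRT8 and CDH1, and the part of either was not tested. HIST1H2BC was at 0.827 to 1.76 FPKM in RD-ES and 0.922 to 2.18 FPKM in SK-N-MC, and HIST2H2BE at 0.242 to 0.600 and 0.454 to 0.697 FPKM, so both overlapped between the lines.

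Class H3 held a member that was listed at 0 in SK-N-MC. HIST1H3C (GRCh37 chr6:26045639-26046049) had FPKM values of 3.002 and 3.54 (RD-ES control) and 3.25 and 1.01 (RD-ES eKD2), and it was listed at 0 in all 4 SK-N-MC libraries. The RD-ES values were 8, 12, 5 and 3 reads. HIST1H2BI, an H2B gene (2, 4, 1 and 2 reads in RD-ES), and HIST2H2BB were also above 0 in every RD-ES library and listed at 0 in every SK-N-MC library. HIST1H3F was at 1.30 to 2.02 FPKM in RD-ES and 0.162 to 1.11 FPKM in SK-N-MC. HIST1H3B was at 0 to 0.672 FPKM in RD-ES and 0.618 to 3.69 FPKM in SK-N-MC, the highest in control 2. HIST1H3C, HIST2H2BB and HIST1H3B had no match in the annotation used, so the uniqueness of their sequence was not examined.

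Class H4 summed to 3.48 to 8.39 FPKM in a library. HIST4H4 (GRCh37 chr12:14920933-14924065, minus strand) had FPKM values of 1.08 and 2.02 (RD-ES control) and 0.355 and 0.349 (RD-ES eKD2). These groups did not overlap, and the share of all genes with such an order was not computed. The SK-N-MC values of HIST4H4 were 1.61 and 0.683 (control) and 0.816 and 2.01 (eKD2), which overlapped. HIST1H4D had 0 to 1.91 FPKM in the RD-ES libraries and 0 to 0.780 in the SK-N-MC libraries, and HIST1H4B had 0 to 0.911 and 0 to 1.499 FPKM.

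**Figure D2:**
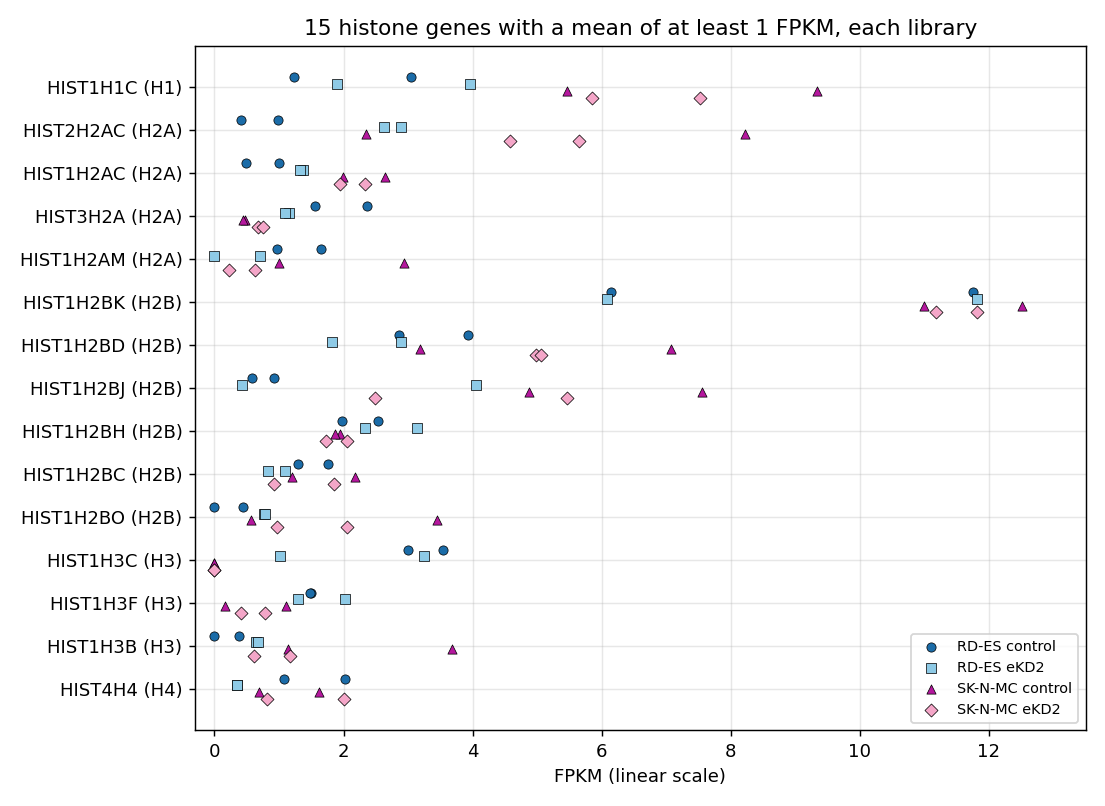
FPKM on a linear axis in each of 8 libraries for the 15 histone genes whose mean reached 1 FPKM, coloured and shaped by group with 2 points a group. HIST1H2BK lies at 6.09 to 12.5 FPKM, HIST1H3C at 0 in the SK-N-MC libraries, and most other values below 4 FPKM.

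One library stood apart in the members. In SK-N-MC control 2 they summed to 92.6 FPKM, against 47.9 in control 1 and 55.8 and 53.1 FPKM in eKD2, while RD-ES gave 38.7 and 54.0 FPKM (control) and 51.9 and 49.7 FPKM (eKD2). Of 49 members that differed between the 2 SK-N-MC control libraries, 37 were higher in control 2 (75.5%, against 49.8% of all genes). Of 52 members above 0 in an SK-N-MC library, 33 were highest in control 2, and the share over all genes was not computed. Control 2 was also the shallowest SK-N-MC library, at 12.92 M reads against 23.13 to 29.48 M in the others. There 1 read stood for more FPKM, so a member with few reads could rank highest by that step alone. The part of this step in the count was not tested. The 6 members of the list known to make poly(A)-tailed transcripts were at 23.5 and 34.2 FPKM in controls 1 and 2, and the other 68 at 24.4 and 58.4 FPKM. By class, the sum in control 2 was 2.37 times that in control 1 for H1, 2.66 for H2A, 1.59 for H2B, 2.41 for H3 and 1.27 for H4. RMRP and RN7SK, RNAs that carry no poly(A) tail, were at 51.8 and 60.7 FPKM in control 2 against 4.74 and 5.65 in control 1, 1.21 and 3.76 in eKD2 1 and 8.55 and 10.4 FPKM in eKD2 2. RN7SL2, also of that list, was at 423 in control 1 and 347 FPKM in control 2. The part of this library in the results was not tested beyond the values given without it.

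**Figure D3:**
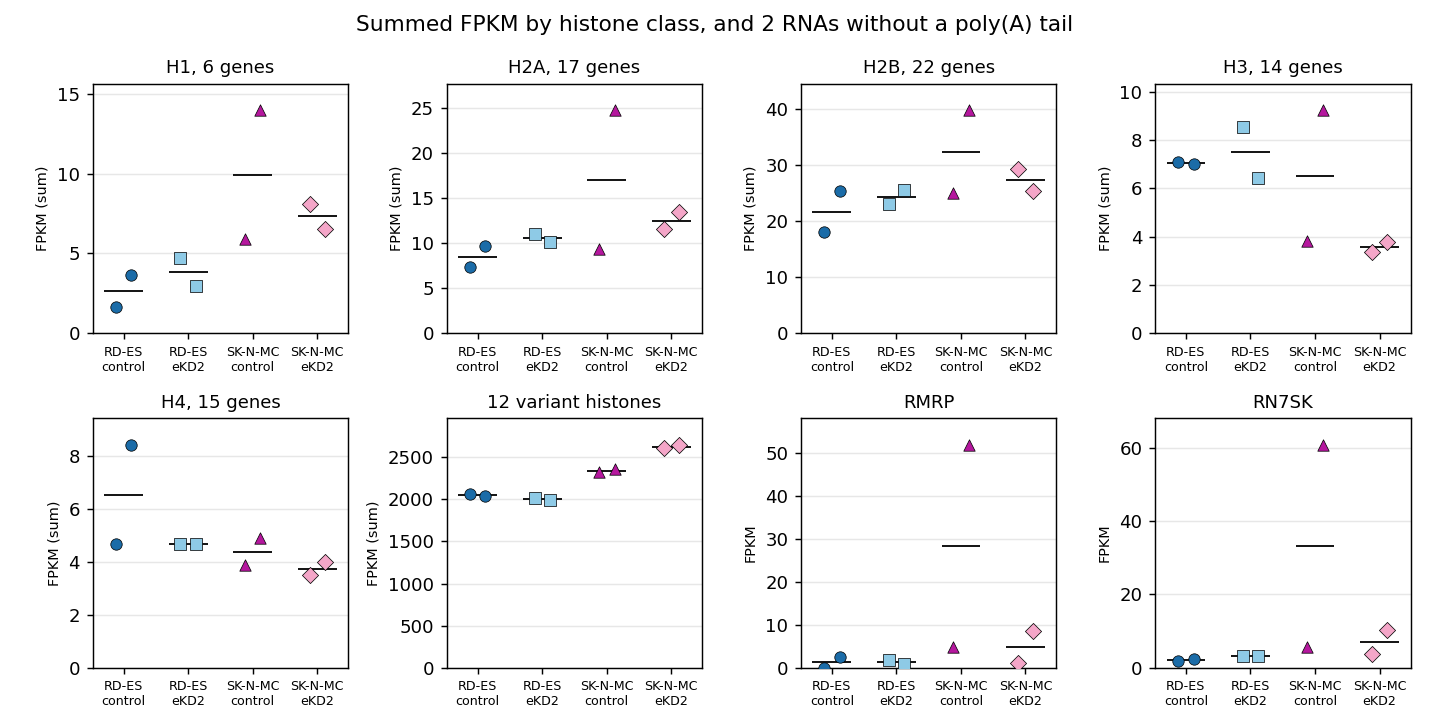
Summed FPKM of each histone class, of 12 variant histone genes and of RMRP and RN7SK (vertical axes, from 0) in the 4 groups, with 1 point a library and a line at the mean of 2. The second SK-N-MC control library is highest in H1, H2A, H2B and H3 and in RMRP and RN7SK, at 51.8 and 60.7 FPKM in the last 2, but not in H4.

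The effect of the enhancer knockdown was tested by limma on log2(FPKM + 1) over 15175 genes whose mean reached 1 FPKM, of which 15 were members. No member changed in RD-ES or in SK-N-MC at an adjusted p under 0.05 (0 and 0 of 15, where 0.343% and 0.323% of all genes tested did). At an unadjusted p under 0.05, HIST4H4 was lower (3.79% of all genes) and HIST2H2AC higher (8.49%) in RD-ES. In SK-N-MC the counts at that level were 0 lower and 0 higher, where all genes gave 7.29% and 5.71%. The median log2 fold change of the 15 was 0.08 (RD-ES) and -0.03 (SK-N-MC), beside 0.03 and -0.0049 for all genes.

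In RD-ES the log2 fold change of HIST2H2AC was 1.16 (adjusted p = 0.394, limma) and that of HIST4H4 was -0.89 (adjusted p = 0.401). HIST3H2A followed with -0.46, HIST1H2AM with -0.80 and HIST1H3C with -0.55, and HIST1H2AC with 0.44, HIST1H3B with 0.50 and HIST1H2BH with 0.20, and their adjusted p were 0.440 to 0.689. In SK-N-MC the lowest p among the members was that of HIST1H2AM, at -0.99 (adjusted p = 0.413). HIST1H3B was at -0.76, HIST1H2BJ at -0.58 and HIST1H2BC at -0.18, and HIST3H2A at 0.23, HIST4H4 at 0.16, HIST2H2AC at 0.13 and HIST1H2BD at 0.05. The leading gene of RD-ES was thus not that of SK-N-MC.

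A missed threshold does not show equal levels, and the intervals were wide. For HIST1H2BK the 95% interval of the log2 fold change was -0.87 to 0.86 (RD-ES) and -0.89 to 0.84 (SK-N-MC), and for HIST1H1C it was -0.66 to 1.33 and -1.09 to 0.90. Over the 15 members the interval had a median width of 1.76 on the log2 scale in each line. The change in SK-N-MC did not differ from that in RD-ES at an adjusted p under 0.05 for any tested member (0 of 15, where 0.244% of all genes did), and at an unadjusted p under 0.05 the counts were 0 lower and 0 higher, where all genes gave 9.16% and 4.38%. HIST3H2A had the lowest p, with a difference of 0.69 (adjusted p = 0.380). The class sums were not tested. Control and eKD2 overlapped in 8 of 10 pairs of class and line. The H2A sum in RD-ES was 7.29 and 9.63 (control) and 10.98 and 10.08 (eKD2), and the H3 sum in SK-N-MC was 3.83 and 9.24 (control) and 3.37 and 3.77 (eKD2), and these did not overlap. The H3 groups parted only at 3.77 against 3.83. With 2 libraries a group such an order often arises without a change, and its share over all genes was not computed, so no result is drawn from it. The H2B sum, the highest, was 21.7 ± 5.19 (RD-ES control), 24.3 ± 1.76 (RD-ES eKD2), 32.4 ± 10.4 (SK-N-MC control) and 27.3 ± 2.83 (SK-N-MC eKD2; SD, n = 2 each).

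**Figure D4:**
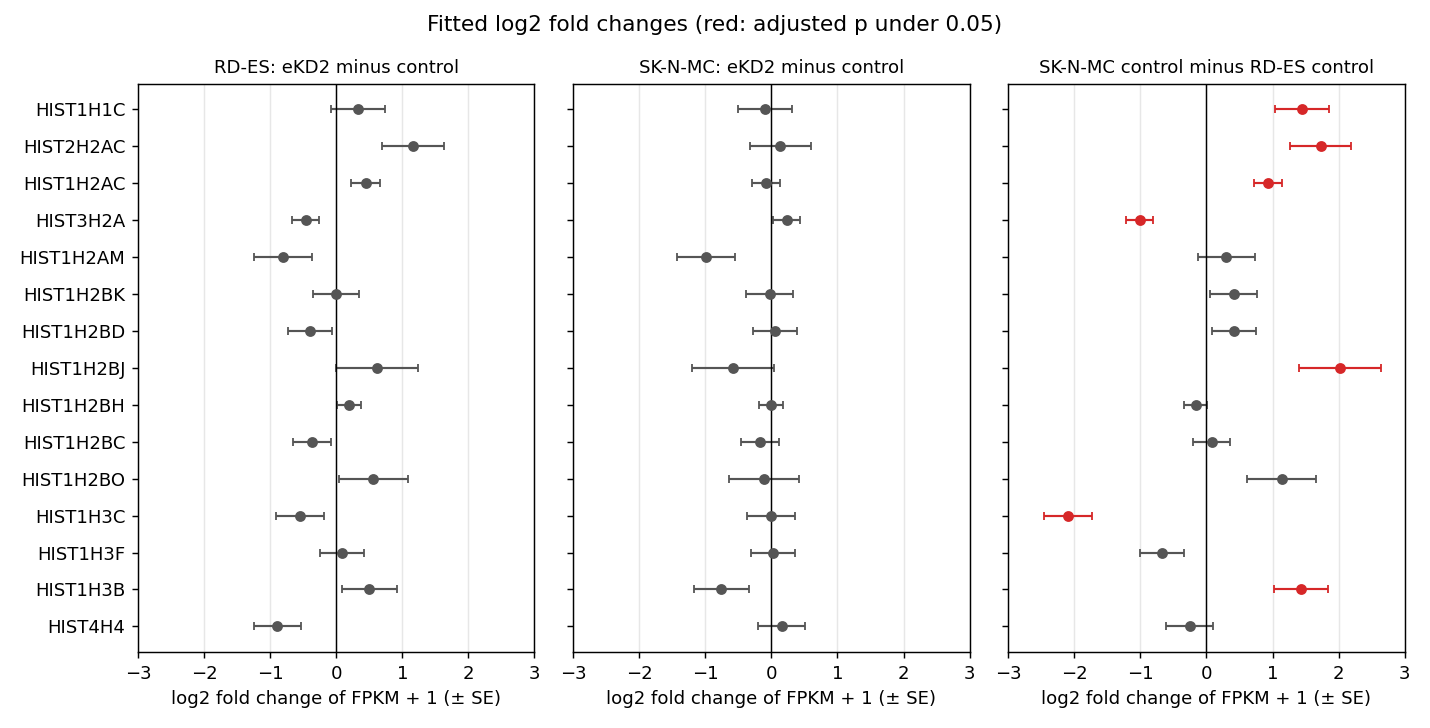
Fitted log2 fold change of FPKM + 1 with its standard error for 15 histone genes, in RD-ES and SK-N-MC (eKD2 minus control) and between the control lines (SK-N-MC minus RD-ES), with red points for an adjusted p under 0.05. In the eKD2 panels 0 points are red, and in the last panel 7 are, with HIST1H3C and HIST3H2A to the left of 0.

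Between the control cells, SK-N-MC differed from RD-ES at an adjusted p under 0.05 in 7 of the 15 tested members, where 57.8% of all genes tested did. HIST1H3C and HIST3H2A were lower in SK-N-MC (26.4% of all genes) and HIST1H2AC, HIST2H2AC, HIST1H1C, HIST1H3B and HIST1H2BJ were higher (31.4%). Since the filter could be met through 1 line alone, this count describes the members that passed it and is no result about all members. Over the 4 libraries of a line, control and eKD2 together, 4 of the 7 had a mean of at least 1 in each line. They were HIST1H1C, HIST1H2AC, HIST1H2BJ and HIST2H2AC, while HIST1H3C, HIST1H3B and HIST3H2A reached it in the higher line only. Over the control libraries that were compared, HIST1H1C alone did so in both lines, at 2.14 FPKM in RD-ES. There HIST1H2AC was at 0.747, HIST1H2BJ at 0.752 and HIST2H2AC at 0.702 FPKM. The log2 fold change was -1.01 for HIST3H2A, 0.93 for HIST1H2AC, 1.73 for HIST2H2AC, 1.44 for HIST1H1C, 1.43 for HIST1H3B and 2.02 for HIST1H2BJ (adjusted p = 0.0070 to 0.0320, limma). HIST1H3C, listed at 0 in SK-N-MC, had a fitted value of -2.09 (adjusted p = 0.0035) that is no bound, since it depends on the pseudocount, and it reached the filter through RD-ES alone. The 8 members that did not pass gave -0.67 for HIST1H3F, -0.16 for HIST1H2BH, -0.26 for HIST4H4, 1.14 for HIST1H2BO, 0.41 for HIST1H2BD, 0.42 for HIST1H2BK, 0.30 for HIST1H2AM and 0.08 for HIST1H2BC, with adjusted p of 0.108 to 0.846.

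Without SK-N-MC control 2 the median log2 fold change of the 15 members was 0.062, and without RD-ES control 1 or RD-ES control 2 it was 0.24 or 0.59. With all libraries it was 0.41. In the fits with a control library left out, 1 group held 1 library, so their counts of calls are not given. Those fits are among the 12 alternatives that follow. HIST3H2A and HIST1H2AC passed in 11 of 12 alternatives and were lost when the eKD2 libraries took the place of the control libraries, where the adjusted p were 0.2399 and 0.149. HIST2H2AC passed in 8, HIST1H3B in 7, and HIST1H1C and HIST1H2BJ in 6. Without SK-N-MC control 2, HIST1H1C was at 1.11 (adjusted p = 0.136), HIST1H2BJ at 1.75 (adjusted p = 0.153) and HIST1H3B at 0.86 (adjusted p = 0.0701, limma).

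Across all 74 members, without a filter, the 4 libraries of RD-ES all lay above the 4 of SK-N-MC in 11 members (14.9%, against 9.37% of all genes). They were HIST3H2A, HIST1H2AE, HIST2H2BB, HIST1H2BI, HIST1H2BN, HIST1H3C, HIST1H3F, HIST1H3A, HIST1H3G, HIST1H3E and HIST1H4C. The reverse held in 6 members (8.11%, against 10.6% of all genes), which were HIST1H1C, HIST1H2AC, HIST1H2AG, HIST1H2AL, HIST2H2BF and HIST1H3H. Genes at 0 in every library cannot separate the lines, and they were 13 of the 74 members but 28887 of all 60332 genes. These shares are therefore not like for like. Among those above 0 in a library, RD-ES lay above in 11 of 61 members and 5654 of 31445 genes, and SK-N-MC in 6 of 61 and 6401 of 31445. Of the 11, 5 were among the 14 H3 genes, HIST1H3H of the 6 was another, and shares by class were not tested. Most of these levels were a few reads, such as 3, 2, 2 and 3 reads of HIST1H2AE in RD-ES against 1, 1, 1 and 0 in SK-N-MC. Nearest to the filter, HIST1H2AM, HIST1H3B and HIST3H2A lay inside with means of 1.02, 1.04 and 1.06 FPKM, and HIST1H3J, HIST1H2AG and HIST1H2BL outside with 0.973, 0.926 and 0.925 FPKM.

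Among genes that act on the members, SLBP, which binds the stem-loop, had FPKM values of 76.1 and 75.3 (RD-ES control), 70.2 and 66.1 (RD-ES eKD2), 84.0 and 84.0 (SK-N-MC control) and 74.0 and 72.8 (SK-N-MC eKD2). The eKD2 values lay below the control values in both lines, with log2 fold changes of -0.15 and -0.19 that did not pass (adjusted p = 0.395 and 0.281, limma). The share of all genes with such an order was not computed, so no result is drawn from it. NPAT, the coactivator of histone transcription, was at 15.4 to 15.6 FPKM in RD-ES control and 18.1 to 18.6 in eKD2, and at 13.7 to 13.8 and 12.6 FPKM in SK-N-MC. CASP8AP2, its partner at the histone locus, was at 17.4 and 15.8 FPKM in RD-ES control and 21.5 and 19.4 in eKD2, and at 28.6 and 26.6 and then 25.2 and 22.7 FPKM in SK-N-MC. Of 10 transcription genes, 17 tested genes of 3′ end processing and decay, and 17 chaperone genes, 0 passed an adjusted p under 0.05 in either eKD2 comparison. At an unadjusted p under 0.05, 7 of the 17 chaperone genes had lower and 2 had higher values in SK-N-MC eKD2, where all genes gave 7.29% and 5.71%. In RD-ES the counts were 1 and 1, where all genes gave 3.79% and 8.49%. The lowest p of these was that of ATRX, which deposits variant H3, at 58.1 and 56.6 FPKM in SK-N-MC control and 105 and 139 in eKD2 (log2 fold change 1.06, adjusted p = 0.0926, limma).

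Among 11 tested variant histone genes, H1F0 rose in RD-ES eKD2. This linker histone gene, known to be high in cells that have stopped dividing, had FPKM values of 41.3 and 41.7 (control) and 59.0 and 62.6 (eKD2; log2 fold change 0.54 ± 0.06 SE, adjusted p = 0.0295, limma). In SK-N-MC it was at 222 and 222 FPKM and then 267 and 270 FPKM (0.28, adjusted p = 0.169). The call in RD-ES was lost with a replicate left out in 3 of 4 cases (adjusted p = 0.0615 to 0.108), with each library scaled to the same median (adjusted p = 0.0502), without the trend (0.0896), with a replicate block (0.202) and with RD-ES fitted alone (0.381). H3F3B was at 590 and 582 FPKM in SK-N-MC control and 716 and 760 in eKD2 (0.33, adjusted p = 0.107), and at 272 to 287 FPKM in RD-ES with a log2 fold change of -0.01. H2AFZ was at 961 to 1088 FPKM in RD-ES and 885 to 1003 FPKM in SK-N-MC, H1FX at 47.0 to 74.8 and 150 to 183 FPKM, and H3F3A at 12.9 to 15.9 and 6.69 to 8.64 FPKM. KDSR, an Ewing sarcoma marker with the lowest p of the lists for the difference between the lines, changed by 0.22 (RD-ES) and -0.35 (SK-N-MC) (difference -0.57, adjusted p = 0.188).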

How the data were processed

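The authors aligned reads with STAR to the human genome (hg19, GRCh37) and made the deposited FPKM matrix with Cuffnorm. FPKM was used as deposited. The study tested counts, and since the file used here holds FPKM, limma 3.58.1 in R 4.3.3 took their place: lmFit and eBayes with trend on log2(FPKM + 1), genes whose mean reached 1 FPKM, 4 groups of 2 libraries in 1 fit, two-sided, with Benjamini-Hochberg adjustment over 15175 genes. The pseudocount understates the change of low genes. The code was tested on simulated data before use.

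Members and lists were chosen with earlier results of these data known. Members named are the 3 highest of each class, those called, the 4 lowest p in each direction of an eKD2 comparison and 5 between lines, a list of 6 with poly(A)-tailed transcripts, and 3 on each side of the filter. The list genes named are the called ones, the lowest p of each comparison and 8 fixed ones. HIST2H2BB, HIST1H2BI, RMRP, RN7SK and the genes listed as not overlapping between groups were named after their values were seen. Reads of a member were recovered from FPKM steps, taking a gene's length less 201 bases. Of 130 values of up to 10 reads, 129 lay within 0.1 of a whole number, with the step set in part on these values. Positions came from a GENCODE annotation lifted to GRCh37, by gene ID, which matched 67 of 74 members. The position of HIST1H3C, which was not matched, came from the deposited matrix. Promoters came from RefSeq (GRCh38.p14). Replicate numbers did not pair the libraries. Alternatives were another pseudocount, no filter, median scaling, quantile normalization, the compared groups alone, no trend, a replicate block and each library left out. The eKD2 libraries in place of control were chosen after seeing the data.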

Additional observations from a re-analysis of the deposited data

How the results depend on the processing

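In the 3 eKD2 comparisons the number of members past an adjusted p of 0.05 was 0 under every alternative run. Few genes of all passed there, from 1 of 15175 (RD-ES fitted alone) to 118 of 31445 (SK-N-MC with no filter), so this 0 says little about the members. Counts at an unadjusted p under 0.05 moved by a few genes, and the cause was not tested. In RD-ES, 2 of 15 members were lower with median scaling, quantile normalization or no trend, where all genes gave 1175, 792 and 539 of 15175. With no filter 4 of 61 were higher, where all genes gave 1935 of 31445. In SK-N-MC, 3 of 61 were lower with no filter (1489 of 31445 genes) and 1 of 15 with the replicate block (1208 of 15175 genes). With the line fitted alone 1 of 15 was higher (1056 of 15175 genes). For the difference between the lines, 3 of 61 were lower with no filter (1951 of 31445 genes) and 1 of 15 with the replicate block (1438 of 15175 genes). For that difference 1 member was higher with a pseudocount of 0.1, no filter, median scaling or no trend, where all genes gave 663, 1336, 1106 and 640. With 1 library left out a group held 1 library, so these counts are not given for those fits. The median log2 fold change in SK-N-MC eKD2 ranged from -0.42 without control 1 to 0.068 without control 2.

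Between the control lines the number past an adjusted p of 0.05 was 7 of 15. It was 12 of 61 with no filter, 4 with the 2 groups fitted alone and 1 with the eKD2 libraries in place of control. Among all genes the number past that adjusted p was 8777 of 15175 in the main fit and 9681 of 31445 with no filter. It was 8411 of 15175 with the 2 groups fitted alone and 8545 of 15175 with the eKD2 libraries in place of control. At an unadjusted p under 0.05 with no filter, 9 of 61 members were lower and 11 higher, where all genes gave 5597 and 6746 of 31445. With the groups alone 3 of 15 were higher (5107 of 15175 genes). With the eKD2 libraries 1 was lower and 2 were higher (4635 and 4685 of 15175 genes). With 1 library left out, the median log2 fold change of the members ranged from 0.062 without SK-N-MC control 2 to 0.78 without SK-N-MC control 1.

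Signs turned, none of them past the threshold, for H3F3B in RD-ES (0.015 with quantile normalization, -0.050 to 0.028 with a library left out), and in SK-N-MC, with a library left out, for HIST1H2BC (-0.46 to 0.11), HIST1H2BD (-0.42 to 0.53), HIST2H2AC (-0.60 to 0.87) and HIST4H4 (-0.21 to 0.52). Between the lines HIST4H4 ran from -0.57 to 0.062, and to 0.79 with the eKD2 libraries. The correlation of replicate differences between control and eKD2 was 0.056 (RD-ES) and 0.027 (SK-N-MC), and the numbers were not taken as pairs. With the replicate block 8 members passed between the lines, 52 genes of all became 11 in RD-ES, 49 became 5 in SK-N-MC and 37 became 7 for the difference. Depth limits every member: at 7.33 M reads 1 read was 0.758 FPKM, and with 2 libraries a group a change smaller than the interval could not be seen.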
